A study of Mus musculus with 17 samples.

Results

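Matrix metalloproteinases (MMPs) and their tissue inhibitors (TIMPs) were followed across mouse prostate tissue and prostate tumours by RNA sequencing. The 10 genes described here, Mmp2, Mmp3, Mmp7, Mmp9, Mmp10, Mmp12, Mmp13, Mmp14, Timp1 and Timp3, were chosen by name. All 10 were listed in both file sets used here, among 13905 genes of the genotype files and 39179 genes of the treatment files. All 10 were also among the genes tested, 13905 in the genotype set and 23289 in the treatment set. The mice were C57BL/6. Of the 17 libraries of the series, 14 in 5 groups are described. Wild-type prostate came from mice of 12 months (n = 3). Prostate tumours of the Ctnnb1 group carried the genotype Ctnnb1pc(ex3)delta/+ at about 12 months (n = 3), and those of the combined group carried that allele with a further engineered change at about 6 to 8 months (n = 3). The other 5 tumours came from an inducible model, in which a CreERT2 recombinase deletes exon 3 of 1 Ctnnb1 allele and makes the further change, at about 15 months, after mock treatment (n = 2) or androgen deprivation therapy (ADT, n = 3). Both treatment arms therefore carried the tumour alleles. CreERT2 is a recombinase activated by tamoxifen. Age, genotype and tissue state (normal prostate or tumour) differed together between wild type and the tumour groups and cannot be told apart.

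MMPs are zinc-dependent proteases that cut collagens, elastin, laminins and many cell-surface and signalling proteins. Most are made as inactive precursors, which other proteases such as plasmin, or other MMPs, cut into the active form, and TIMPs bind the active site and block it. In the prostate, remodelling of the matrix accompanies both tissue regression after androgen withdrawal and tumour invasion. Deletion of exon 3 of Ctnnb1 removes the phosphorylation sites through which beta-catenin is sent for degradation, and Mmp7 is a textbook target gene of beta-catenin in intestinal tumours. Transcript levels do not show how much of each enzyme is active.

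Of the 8 MMP genes, 5 lie in a cluster on chromosome 9 that holds 10 MMP genes (chr9:7272514-7699585 in GRCm38, GENCODE M21). In order along the plus strand they are Mmp13, Mmp12, Mmp3, Mmp10 and Mmp7. Each of these 5 genes has the letters TGAGTCA, the binding sequence of AP-1 (dimers of Fos and Jun proteins), on 1 of the strands within 250 bases before a start annotated by RefSeq. The windows are shown because the same letters stand close to the start in all 5, and because members of the cluster were among the genes with the largest changes described below. They run 5′ to 3′ on the plus strand of GRCm38.p6, end at the base before the start, and have the AP-1 match in capitals. The Mmp13 window is chr9:7272264-7272513, that of Mmp12 is chr9:7347124-7347373, that of Mmp3 is chr9:7445572-7445821, that of Mmp10 is chr9:7502092-7502341 and that of Mmp7 is chr9:7691840-7692089.
Mmp13: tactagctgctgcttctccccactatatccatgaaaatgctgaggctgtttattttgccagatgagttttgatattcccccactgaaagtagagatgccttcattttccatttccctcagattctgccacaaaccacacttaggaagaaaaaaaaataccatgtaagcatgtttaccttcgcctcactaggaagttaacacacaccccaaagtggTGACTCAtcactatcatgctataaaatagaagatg
Mmp12: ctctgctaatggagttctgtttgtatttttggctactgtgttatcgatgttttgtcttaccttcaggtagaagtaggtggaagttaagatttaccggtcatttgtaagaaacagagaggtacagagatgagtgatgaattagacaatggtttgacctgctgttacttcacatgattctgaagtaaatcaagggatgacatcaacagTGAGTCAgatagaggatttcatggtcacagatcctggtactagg
Mmp3: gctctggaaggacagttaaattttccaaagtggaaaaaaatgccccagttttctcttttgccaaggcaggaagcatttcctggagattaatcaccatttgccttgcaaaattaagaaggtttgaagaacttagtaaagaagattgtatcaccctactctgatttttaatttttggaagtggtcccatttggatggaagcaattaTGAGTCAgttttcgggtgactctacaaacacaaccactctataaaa
Mmp10: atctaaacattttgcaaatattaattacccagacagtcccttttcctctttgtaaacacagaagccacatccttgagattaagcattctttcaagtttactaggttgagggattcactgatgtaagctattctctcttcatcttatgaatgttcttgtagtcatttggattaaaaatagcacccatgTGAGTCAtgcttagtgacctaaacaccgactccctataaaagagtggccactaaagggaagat
Mmp7: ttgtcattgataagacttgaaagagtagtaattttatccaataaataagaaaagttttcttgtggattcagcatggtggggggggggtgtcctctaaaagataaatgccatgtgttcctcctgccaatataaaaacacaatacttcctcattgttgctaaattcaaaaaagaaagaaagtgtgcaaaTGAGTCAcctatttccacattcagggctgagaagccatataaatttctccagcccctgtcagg

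The matches began 35 bases before the start in Mmp13, 44 in Mmp12, 46 in Mmp3, and 63 in both Mmp10 and Mmp7. Mmp13 carries the reverse complement, TGACTCA. The Mmp12 match belongs to the second of its annotated starts, and the window of the first start held none. Windows of 300 bases (250 before the start and 50 after it) were found for 8 of the 10 members, and Mmp14, Timp1 and Timp3 had no AP-1 match in them. Among all 27025 genes with such windows, 5.95% had at least 1 match on either strand. Of the other cluster genes, Mmp1a and Mmp1b had a match, and Mmp8, Mmp20 and Mmp27 had none. The TCF/LEF letters CTTTGAT or CTTTGTT, which beta-catenin's DNA-binding partners recognise, occurred in 10.6% of genes and in 2 members: in Mmp7 as ATCAAAG from 4 bases after the start, and in Mmp12 from 148 bases before its first start. The TATA letters TATAAA, present in 15.7% of genes, occurred in the windows of the 5 cluster members. The palindromic response element of the androgen receptor was in no member window and in 0.0111% of genes. These are letter matches on both strands in 1 window per start, with no measurement of binding.

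The deposited values are gene counts that the authors scaled within a file set, so levels are compared only among wild type, Ctnnb1 and combined, or only between mock and ADT. A value below is such a scaled count, and a change is a difference of mean log2(value + 1) between groups with its standard error (SE). A gene was called changed when its adjusted p in limma was under 0.05. Summed values per library ran from 32455483 to 47248750 in the genotype set and from 30591734 to 32791101 in the treatment set. They are not sequencing depth, which is unknown. A gene-level value of Ctnnb1 does not resolve exon 3 and so checks no genotype label. Nothing in the labels shows whether libraries of a group came from separate litters or sites of a tumour, and p-values measure the spread between these libraries. In the genotype set, the median gene differed by 0.125 to 0.148 on the log2 scale between wild-type libraries and by up to 0.275 between combined libraries, with combined 12 the more distant of the 3. In bulk tissue, a higher value from more cells of a type and from more RNA per cell cannot be told apart.

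Mmp7, matrilysin, a small MMP secreted by glandular epithelium, had the highest level per kilobase of exon among the 8 MMP members in every wild-type, Ctnnb1 and combined library. Its values were 52114, 55332 and 27474 in normal prostate, 107601, 77018 and 84989 in the Ctnnb1 tumours and 91993, 120068 and 88757 in the combined tumours. All 6 tumours lay above all 3 wild-type libraries, and the tumour groups overlapped each other. Mmp7 rose by 1.05 (SE 0.28) in Ctnnb1 against wild type (limma adjusted p = 0.0128) and by 1.21 (SE 0.28) in combined (adjusted p = 0.00668). Per kilobase of exon, Mmp7 made up 98.4% ± 0.616 (SD, n = 3) of the summed level of the 8 MMP members in wild type, 98.5% ± 0.314 (n = 3) in Ctnnb1 and 94.8% ± 2.79 (n = 3) in combined. An antisense transcript, AV064505, overlaps Mmp7, and whether counting used strand is not given in the sources used here.

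**Figure D1:**
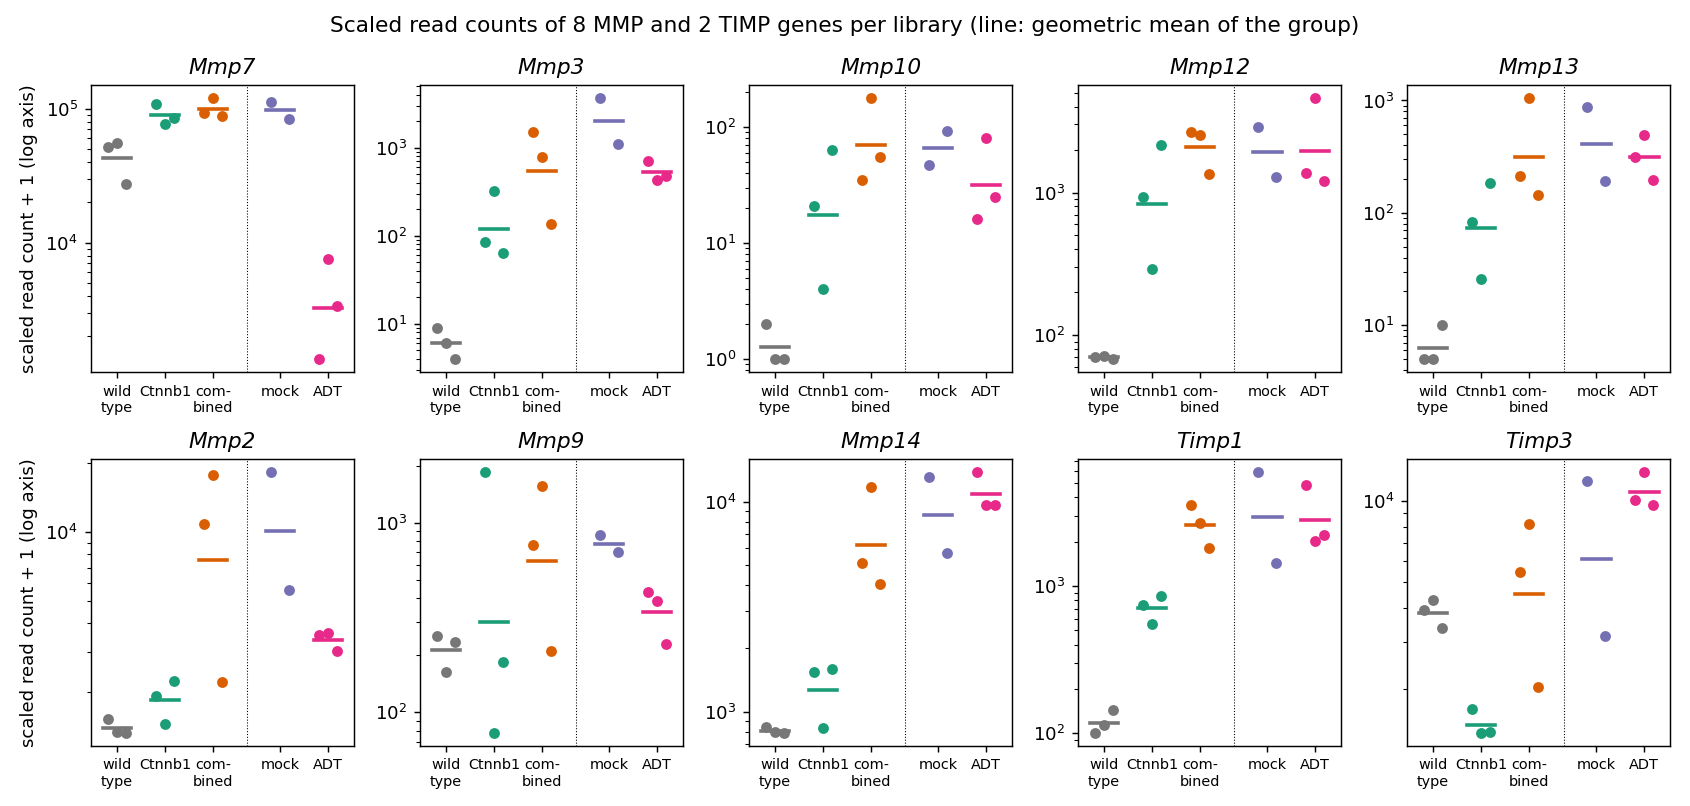
Scaled count of each of the 10 genes in every library (log axis, value + 1), with 1 point per library, the groups along the horizontal axis and a line at each group's geometric mean. Mmp3, Mmp10, Mmp12, Mmp13 and Timp1 were higher in every tumour library of the Ctnnb1 and combined groups than in any wild-type library, and Mmp7 was far lower in the 3 ADT libraries than in the 2 mock libraries.

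The stromelysins Mmp3 and Mmp10, which cut proteoglycans, laminin and other MMP precursors, were near the bottom of the scale in wild type. Mmp3 read 8, 5 and 3 for wild type, 83, 324 and 63 for the Ctnnb1 tumours and 1489, 788 and 135 for the combined tumours. No tumour overlapped the wild-type libraries. The increase was 4.33 (SE 0.93, limma adjusted p = 0.00434) in Ctnnb1 and 6.50 (SE 0.93, adjusted p = 5.68e-04) in combined. Mmp10 stood at 1, 0 and 0 in normal prostate, at 20, 3 and 63 in Ctnnb1 tumours and at 34, 177 and 54 in combined ones. Every tumour was again above every wild-type library, and Ctnnb1 14, at 3, was the nearest to them. With wild type this close to 0, the fitted change of Mmp10 depends on the number added before taking logs. It was 3.80 (SE 1.04, adjusted p = 0.0139) in Ctnnb1 and 5.80 (SE 1.04, adjusted p = 0.00183) in combined with 1 added, and 1.56 (adjusted p = 0.0837, not called) and 2.97 with 10 added.

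Mmp13, a collagenase that cuts fibrillar collagen, followed the same order of group means. It had 4, 4 and 9 in the wild-type libraries, 82, 25 and 182 in the Ctnnb1 tumours and 210, 1051 and 142 in the combined tumours, without overlap between wild type and either tumour group. Mmp13 rose by 3.54 (SE 0.89, limma adjusted p = 0.00940) in Ctnnb1 and by 5.65 (SE 0.89, adjusted p = 9.39e-04) in combined. Mmp12, the macrophage elastase, was almost the same in the wild-type libraries, at 69, 70 and 67. It had 930, 288 and 2169 in Ctnnb1 and 2653, 2520 and 1343 in combined tumours, again without overlap with wild type. The increase was 3.58 (SE 0.63, limma adjusted p = 0.00165) in Ctnnb1 and 4.90 (SE 0.63, adjusted p = 3.42e-04) in combined. Mmp12 overlaps Mmp1b on the opposite strand. Leaving out Ctnnb1 14 gave changes in Ctnnb1 of 3.61 for Mmp3, 4.86 for Mmp10, 4.35 for Mmp12 and 4.29 for Mmp13, and leaving out Ctnnb1 15 gave 2.86 for Mmp10, 2.90 for Mmp12 and 2.88 for Mmp13. In combined, Mmp3 was 5.77 without combined 10 and 7.50 without combined 12, and without combined 11 Mmp10 was 5.12 and Mmp13 was 4.79. These genes stayed called in each of these fits. For all 5 cluster members the ranges of the 2 tumour groups overlapped, and the difference between these groups was not tested.

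The genes beside the cluster moved little. Flanking genes within 300 kb of its edges were Dync2h1, Dcun1d5, Tmem123, Birc2, Birc3 and Yap1, and their changes against wild type lay between -0.50 and 0.52. Of these, Dync2h1 (0.52) and Birc2 (0.25) rose and Birc3 (-0.37) fell in Ctnnb1, while Birc2 (0.27) rose and Birc3 (-0.50) fell in combined. Within the cluster but outside the 10 genes, Mmp8, the neutrophil collagenase, rose by 1.41 (SE 0.41, limma adjusted p = 0.0188) in combined and had a change of 0.49 (SE 0.41, adjusted p = 0.327) in Ctnnb1. Mmp20, an enamel protease, was called in neither, at 1.58 (SE 0.73) in Ctnnb1 and 0.64 (SE 0.73) in combined. The cluster genes Mmp1a, Mmp1b and Mmp27 were not among the genes kept from the genotype files, so they have no change against wild type. Between ADT and mock no flanking gene was called, and the widest difference among them was -1.45 (SE 0.19, adjusted p = 0.106) in Birc3, an inhibitor of apoptosis.

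**Figure D2:**
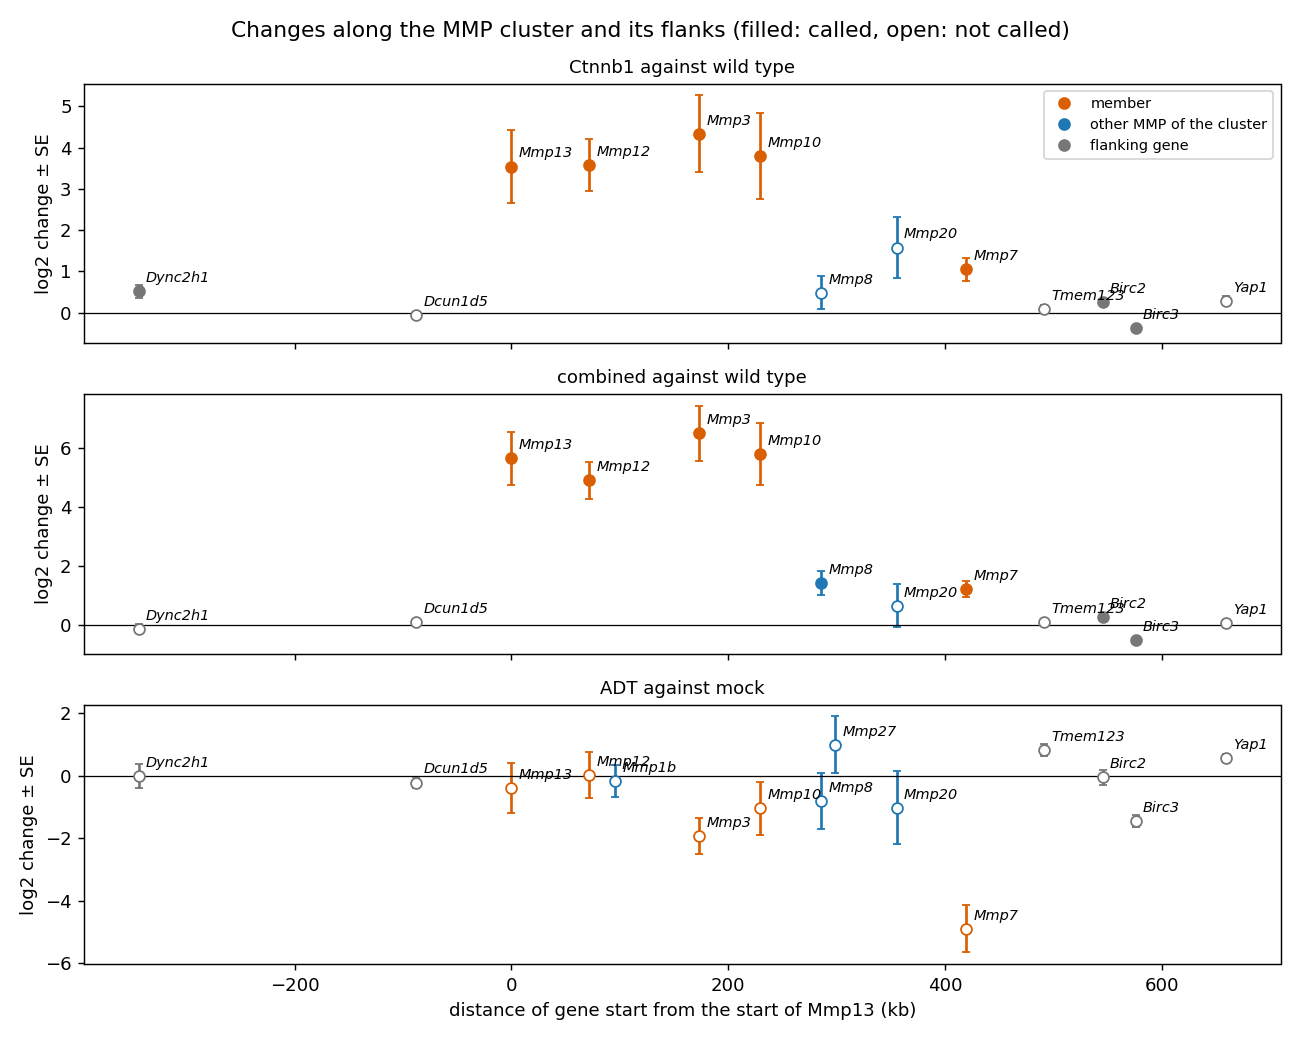
Change on the log2 scale against wild type or mock (vertical axis, ± SE) for the MMP genes of the chromosome 9 cluster and its flanking genes, by distance in kilobases from the start of Mmp13, with 1 panel per comparison and filled points for called genes. Mmp1a is not shown, and Mmp1b and Mmp27 appear only in the panel of ADT against mock. Between wild type and the tumour groups the 5 members changed by 1.05 to 6.50, and the flanking genes by -0.50 to 0.52.

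The gelatinases and the membrane-type enzyme lie outside that cluster. Mmp14, a membrane-anchored MMP that activates the precursor of Mmp2, read 841, 801 and 792 for wild type, 1545, 837 and 1591 for the Ctnnb1 tumours and 5131, 11731 and 4046 for the combined tumours. The combined tumours were above all other libraries of the set, and Ctnnb1 14 lay within the wild-type range. Mmp14 rose by 2.94 (SE 0.39, limma adjusted p = 3.89e-04) in combined, and its change in Ctnnb1 was 0.65 (SE 0.39, adjusted p = 0.181). Mmp2, gelatinase A, stood at 1527, 1341 and 1327 in normal prostate, at 1915, 1446 and 2237 in Ctnnb1 tumours and at 10863, 17852 and 2222 in combined ones. Combined 12 was as low as the highest Ctnnb1 tumour, while the other 2 were over 4 times that level. Mmp2 rose by 2.44 (SE 0.64, adjusted p = 0.0118) in combined, and its change in Ctnnb1 was 0.40 (SE 0.64, adjusted p = 0.615). With 1 library left out at a time, the change of Mmp2 ran from 1.82 to 3.32, the lowest value without combined 11 and the highest without combined 12. Mmp9, gelatinase B, had 251, 162 and 233 in the wild-type libraries, 1854, 77 and 182 in the Ctnnb1 tumours and 758, 1560 and 209 in the combined tumours. All 3 groups overlapped, and Ctnnb1 13 alone stood far above its group. Mmp9 was called in neither comparison, with changes of 0.49 (SE 1.13, 95% interval -2.09 to 3.07) in Ctnnb1 and 1.56 (SE 1.13, 95% interval -1.02 to 4.15) in combined. Without Ctnnb1 13 the first of these was -0.83.

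Of the inhibitors, Timp1, a secreted TIMP induced in wounds and inflammation, read 100, 113 and 143 for wild type, 739, 554 and 860 for the Ctnnb1 tumours and 3539, 2678 and 1798 for the combined tumours. The 3 groups did not overlap. Timp1 rose by 2.58 (SE 0.27, limma adjusted p = 1.26e-04) in Ctnnb1 and by 4.44 (SE 0.27, adjusted p = 1.73e-05) in combined. Timp3, the TIMP that binds to the matrix and also blocks ADAM proteases, stood at 3937, 4285 and 3372 in normal prostate, at 1681, 1378 and 1383 in Ctnnb1 tumours and at 5439, 8208 and 2031 in combined ones. All Ctnnb1 tumours were below all wild-type libraries, whereas the combined tumours spanned the wild-type range. Timp3 fell by 1.38 (SE 0.43, adjusted p = 0.0230) in Ctnnb1, and its change in combined was 0.22 (SE 0.43, 95% interval -0.76 to 1.20). That change was -0.21 without combined 11, and 0.80 and called without combined 12 (adjusted p = 0.00802). The fall in Ctnnb1 kept its direction but missed the threshold without wild type 1, wild type 2, Ctnnb1 14 or Ctnnb1 15 (changes of -1.37 to -1.30, adjusted p = 0.0589 to 0.0676). Over all 16 alternative settings the fall was called in 11, with limma adjusted p from 1.65e-04 to 0.0870. The main SE came from the fit of all 9 libraries, the combined tumours included. Timp1 and Timp3 overlap Syn1 and Syn3 on the opposite strand.

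The other inhibitors moved in different directions. Timp4 averaged 1248 ± 132 (SD, n = 3) in wild type and fell by 4.31 (SE 0.42, limma adjusted p = 9.47e-05) in Ctnnb1. In combined it was 32.1-fold lower on the log2(value + 1) scale (adjusted p = 4.53e-05). Reck, a membrane-anchored MMP inhibitor, fell by 3.07 (SE 0.48, adjusted p = 8.90e-04) in Ctnnb1 and by 1.32 (SE 0.48, adjusted p = 0.0414) in combined. Timp2, which takes part in Mmp2 activation by Mmp14 and also inhibits MMPs, rose by 0.83 (SE 0.22, adjusted p = 0.0109) in combined and had a change of 0.36 (SE 0.22) in Ctnnb1. Per kilobase of exon, Timp1 made up 4.94% ± 0.683 (SD, n = 3) of the summed level of the 4 TIMP genes in wild type, 23.8% ± 6.33 in Ctnnb1 and 42.6% ± 8.22 in combined, without overlap between the groups. The share of Timp4 was 7.85% ± 0.445 in wild type, 0.316% ± 0.105 in Ctnnb1 and 0.104% ± 0.0561 in combined. Timp2 held the largest mean share in all 3 groups, at 69.5% ± 1.79 in wild type, 70.6% ± 6.37 in Ctnnb1 and 48.8% ± 7.49 in combined, where Timp1 was above it in combined 10 only.

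**Figure D3:**
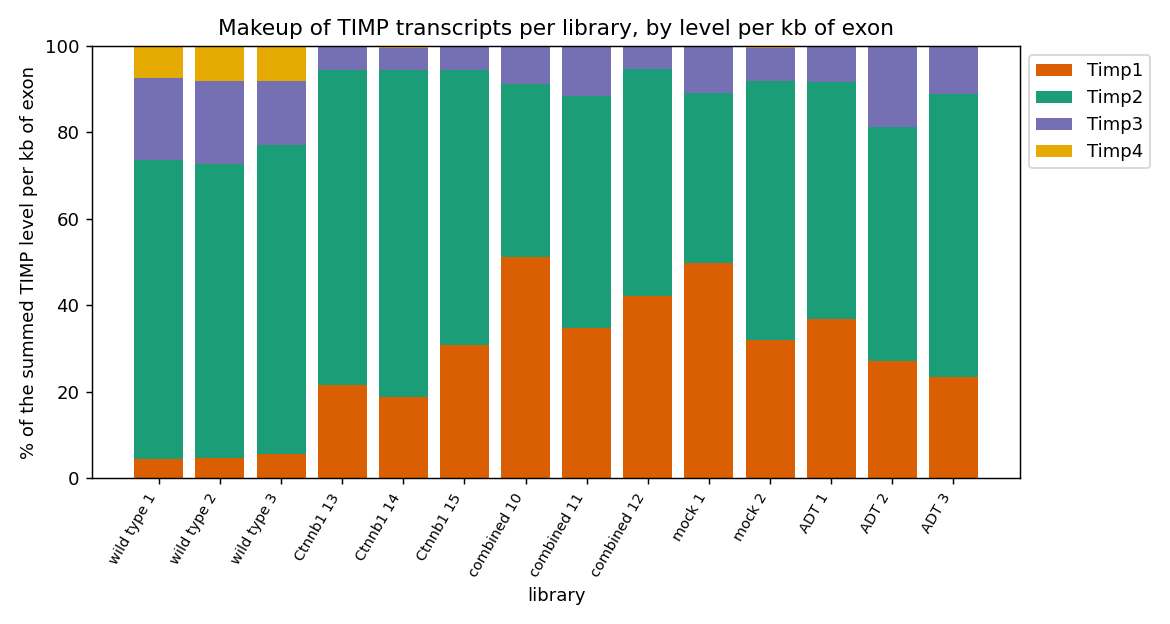
Share of each TIMP gene in the summed level per kilobase of exon of the 4 TIMP genes (percent), 1 bar per library, by group. The share of Timp1 lies between 4.43% and 5.72% in wild type and between 34.7% and 51.1% in combined tumours.

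Counted together, 6 of the 10 genes rose, 1 fell and 3 were not called in Ctnnb1 against wild type. The background was wide: 28.9% of the 13905 genes rose and 29.6% fell in that comparison. The 6 that rose and the 1 that fell did not overlap with wild type, which was also so for 35.9% of all genes in the upward and 35.6% in the downward direction. The median change of the 10 genes was 1.81, beside 0.00 for all genes. In combined against wild type, 8 rose, none fell and 2 (Mmp9 and Timp3) were not called, where 28.3% of all genes rose and 29.5% fell. All 8 lay above wild type without overlap, as did 32.1% of all genes. The median change was 3.69, beside -0.01 for all genes. Both comparisons use the same 3 wild-type libraries, so their directions are not independent of each other. The genotype files hold no gene with a mean under 15.6 over their 9 libraries. The wild-type means of Mmp10, Mmp3 and Mmp13 lie below that, so their listing rests on the tumour values. These genes also enter the median changes. Neither the counts nor the median changes support a difference by themselves. When all libraries were rescaled to equal totals, the median change of all genes shifted by 0.49 in Ctnnb1 and 0.52 in combined, and 78.9% and 81.9% of calls were higher, beside 49.4% and 48.9% without it. No member changed direction under that rescaling in either comparison, Mmp14 was then also called in Ctnnb1 (adjusted p = 0.0257), and Timp3 was no longer called there (-0.89, adjusted p = 0.0870).

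**Figure D4:**
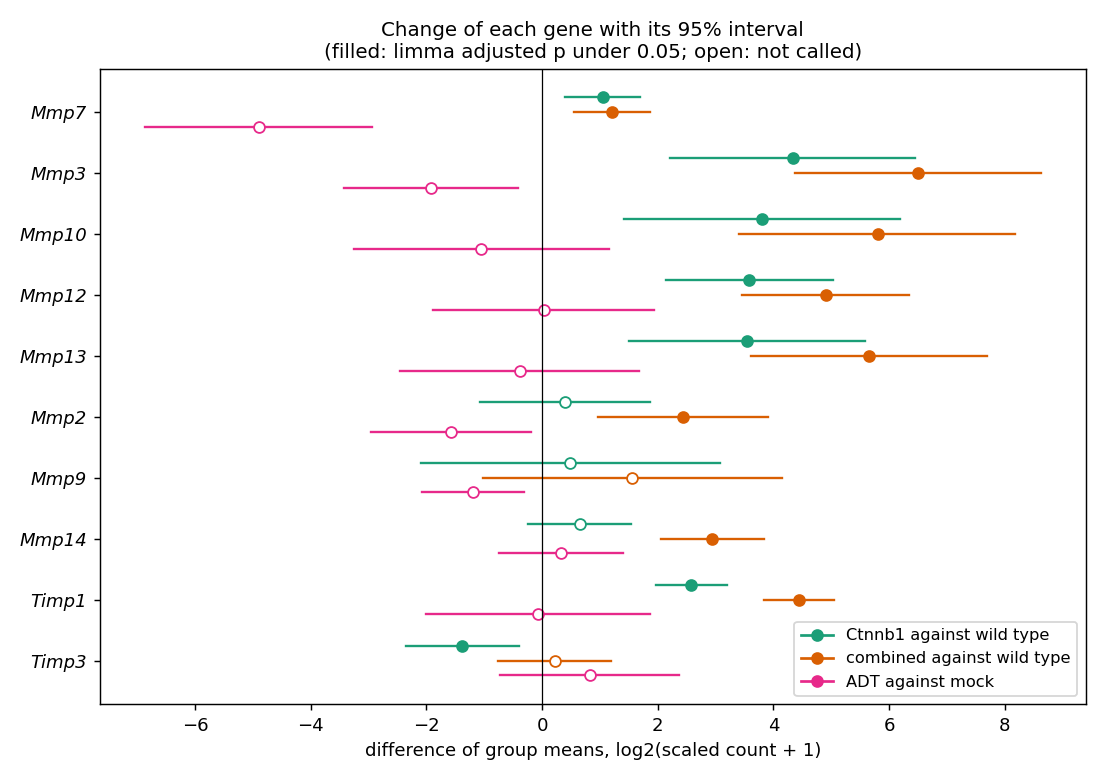
Change on the log2 scale of each of the 10 genes in Ctnnb1 against wild type, combined against wild type and ADT against mock (horizontal axis, with 95% intervals); filled points were called. Intervals of Mmp3, Mmp10, Mmp12, Mmp13, Mmp7 and Timp1 lie above 0 in both comparisons with wild type.

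Markers of other cell types are given beside these changes, where 28.9% of all genes rose in Ctnnb1 and 28.3% in combined. The shares of all genes that fell were 29.6% and 29.5%. The summed value of the 9 macrophage markers was 4642 to 5056 in wild type, 9546 to 18914 in Ctnnb1 and 12658 to 46655 in combined tumours, and 6 of 9 and 8 of 9 of them rose. Marco among them has a wild-type mean below the lowest mean in the files. The 5 neutrophil markers listed, of 8, summed to 62 to 76, 170 to 516 and 680 to 1831, with 3 of 5 and 5 of 5 higher. The wild-type means of S100a8, S100a9, Cxcr2 and Retnlg, 4 of these 5, lie below the lowest mean in the files, so their listing rests on the tumour values and the count supports no difference by itself. The 8 fibroblast markers summed to 18947 to 20250 in wild type and 6400 to 7755 in Ctnnb1, where 3 of 8 fell, beside 29.6% of all genes. In combined they summed to 34679, 58304 and 10700 in libraries 10, 11 and 12, with 2 of 8 higher, a share near that of all genes. Within the combined group Mmp2, Mmp7, Mmp9, Mmp13, Mmp14 and Timp3 were highest in combined 11 and lowest in combined 12. So were the fibroblast, smooth muscle, endothelial and neutrophil sums. Mmp3, Mmp12, Timp1 and the macrophage sum were also lowest in combined 12, and Mmp10 was lowest in combined 10. The 7 smooth muscle markers all fell in both tumour groups, from 139248 to 178671 in wild type to 1747 to 3418 in Ctnnb1 and 5775 to 19443 in combined. The 6 luminal epithelial markers were listed in every group, and summed to 485399 to 654852 in wild type and 94852 to 171028 in the 6 tumours. That gap came from Pbsn, an androgen-driven secretory gene, which fell in both tumour groups, from 383138 to 555331 in wild type to 4885 to 65567. Without it the other 5 summed to 99521 to 112337 in wild type and 85601 to 118328 in the tumours, which overlap. Krt8 among them rose in both. Of 6 basal and squamous markers 3 rose in Ctnnb1 and 2 in combined, the latter near the share of all genes. Krt6a changed by 7.08 (SE 0.77) and 6.66 (SE 0.77), and Krt6a and Krt16 are listed through their tumour values. Of 5 endothelial markers 1 rose in Ctnnb1, again near the share of all genes, and 4 in combined, and of 3 listed osteoblast and chondrocyte markers 2 rose and 1 fell in each. No marker of these lists was at 0 in every library. The part of cell composition in the changes of the MMP and TIMP genes was not tested.

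**Figure D5:**
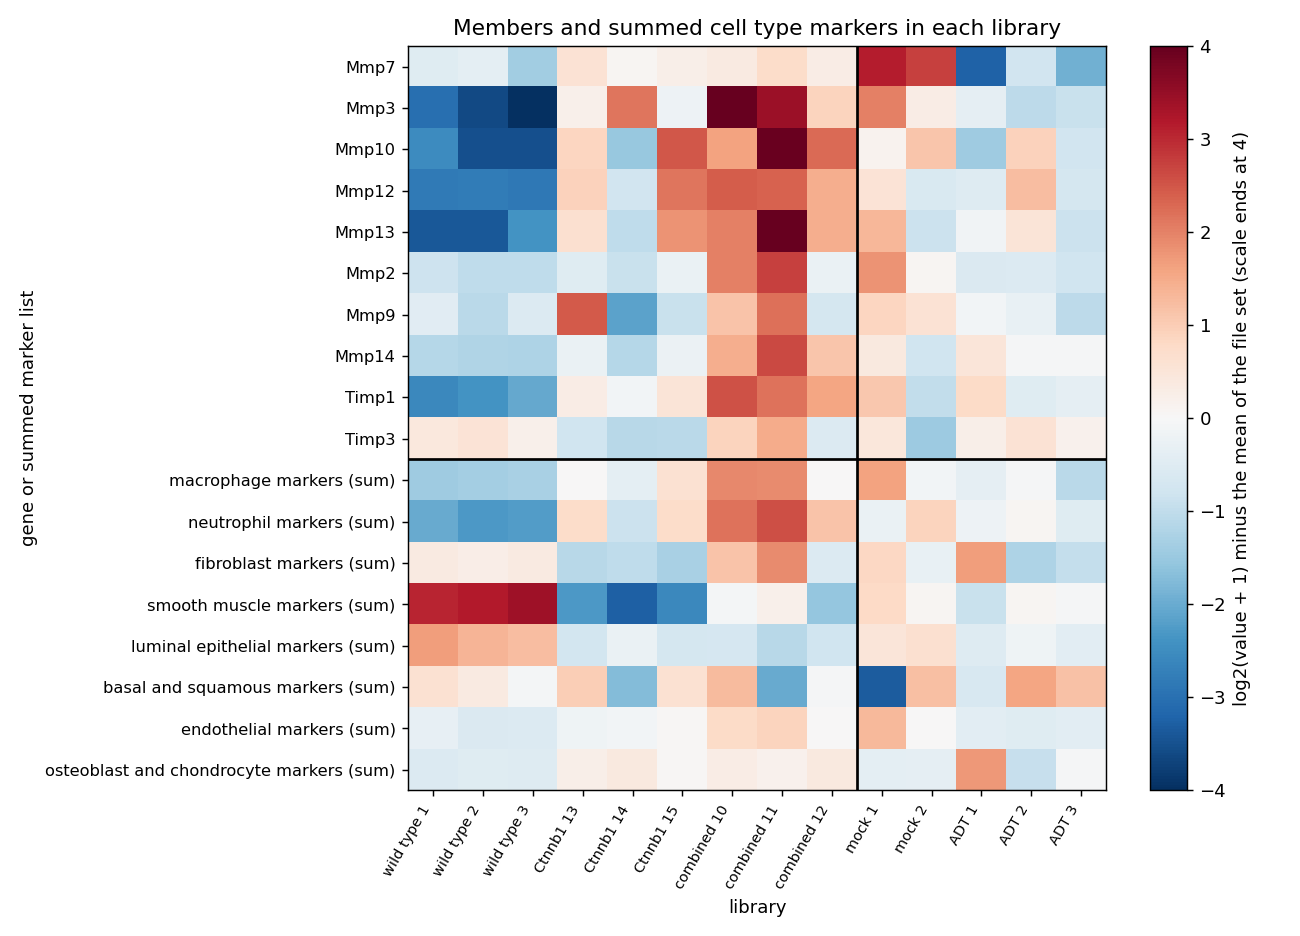
Heat map of log2(value + 1) minus the mean of the file set, for the 10 genes and the summed markers of 8 cell type lists (rows) in each library (columns); red is above and blue below that mean. Combined 12 lies below the other combined tumours for every one of the 10 genes except Mmp10. The same holds for the macrophage, fibroblast, smooth muscle, endothelial and neutrophil sums.

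Other genes of the pathway did not move as one. Of the 15 further MMP genes, 10 were listed in the genotype files. Mmp15 (1.38, SE 0.22) and Mmp24 (2.79, SE 0.57), both membrane-type, rose in Ctnnb1, and Mmp17 (-4.40, SE 0.41) and Mmp16 (-4.02, SE 0.80), also membrane-bound, fell. In combined, 5 rose, with Mmp11, stromelysin-3, at 2.26 (SE 0.43), and the same Mmp17 and Mmp16 fell by 2.14 (SE 0.41) and 2.66 (SE 0.80). Of 8 listed activators, 4 rose and 3 fell in each comparison. Hpn, the transmembrane serine protease hepsin, rose by 4.28 (SE 0.23) and 3.67 (SE 0.23) in Ctnnb1 and combined. Plat, the tissue-type plasminogen activator, rose by 4.05 (SE 0.31) and 5.25 (SE 0.31). Plau, the urokinase-type activator, changed by -3.07 (SE 0.56) and -1.79 (SE 0.56), while its receptor Plaur rose by 2.59 (SE 0.24) and 2.70 (SE 0.24). Of 5 listed inhibitors of such activators, 2 rose in each comparison, while 1 fell in Ctnnb1 and 2 fell in combined.

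Of 14 ADAM and ADAMTS proteases, 6 rose and 1 fell in Ctnnb1, and 10 rose and none fell in combined. Adamts4, an aggrecan-cutting protease, rose by 3.43 (SE 0.53) and 5.28 (SE 0.53). Of 13 matrix substrates, 5 rose and 2 fell in Ctnnb1, where Dcn (-1.70, SE 0.43) and Eln, the elastin gene (-2.06, SE 0.56), were the ones that fell. In combined 10 rose and none fell, with Spp1, osteopontin, at 8.14 (SE 0.85) and Col10a1, a non-fibrillar collagen gene, at 7.51 (SE 0.57). Col10a1 had 4, 1 and 1 in wild type, below the lowest mean in the files, and is listed through its tumour values, as is Adamts12 of the protease list. Of 7 listed AP-1 genes 5 rose in each comparison, among them Fos (2.58, SE 0.32 in Ctnnb1 and 3.04, SE 0.32 in combined) and Junb (1.89, SE 0.22 and 1.96, SE 0.22). Of 6 listed cytokine and growth factor genes known to induce MMPs, 5 rose in each comparison, with Tnf at 3.15 (SE 0.34) in Ctnnb1 and 4.29 (SE 0.34) in combined. Il1a, Il1b, Tnf and Areg, 4 of these 6, have wild-type means below the lowest mean in the files and are listed through their tumour values, so this count supports no difference by itself. All of these calls were made with limma over the 13905 genes, whose background of calls is given above.

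In the inducible model, androgen deprivation was set against mock treatment. None of the 10 genes was called, and limma called 2 of 23289 genes (0.00859%) in all. At an unadjusted p under 0.05, 3779 genes passed (16.2%), among them Mmp7, Mmp2, Mmp3 and Mmp9. With 2 mock libraries the intervals are wide. The largest difference among the 10 genes was in Mmp7, at 111837 and 83922 in mock and 1353, 7497 and 3354 in ADT tumours. Every ADT tumour was more than 10 times below both mock tumours. The difference was -4.90 (SE 0.75, 95% interval -6.87 to -2.94, limma adjusted p = 0.122), or 29.9-fold lower on the log2(value + 1) scale. A log2 change of -4 or beyond, a bound chosen after the value of Mmp7 was seen, was reached by 64 genes (0.275%). With 1 library left out at a time, the difference of Mmp7 stayed between -5.51 and -4.27. Pbsn, which needs androgen, differed by -10.10 (SE 0.85, limma adjusted p = 0.0657) in the same tumours and was not called either. All 6 luminal markers, Pbsn among them, had changes below 0, and a tie between Pbsn and Mmp7 was not tested.

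Mmp3 had 3654 and 1095 in mock and 705, 431 and 481 in ADT, a difference of -1.92 (SE 0.58, limma adjusted p = 0.229). Mmp2 had 18366 and 5567 in mock and 3548, 3630 and 3032 in ADT, a difference of -1.58 (SE 0.53, adjusted p = 0.262). Mmp9 had 858 and 697 in mock and 431, 385 and 229 in ADT, a difference of -1.20 (SE 0.34, adjusted p = 0.211). In these 3 genes and Mmp7 the ADT tumours lay below both mock tumours, an ordering met by 16.8% of all genes. The remaining genes overlapped between the arms. Mmp12 had 2881 and 1291 in mock and 1372, 4601 and 1207 in ADT, with a difference of 0.03 (SE 0.73, 95% interval -1.88 to 1.93). Mmp14 had 13059 and 5717 in mock and 13890, 9596 and 9660 in ADT, with a difference of 0.33 (SE 0.41, 95% interval -0.74 to 1.40). Mock 1 was the higher of the mock tumours for every one of the 10 genes except Mmp10.

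Mmp10 had 46 and 91 in mock and 15, 79 and 24 in ADT, and Mmp13 had 880 and 190 in mock and 315, 496 and 193 in ADT. Their differences were -1.05 (SE 0.84) and -0.39 (SE 0.79). Timp1 had 5958 and 1442 in mock and 4849, 2027 and 2222 in ADT, and Timp3 had 11814 and 3147 in mock and 10064, 12811 and 9646 in ADT. Their differences were -0.07 (SE 0.74) and 0.82 (SE 0.59), and the intervals of all 4 genes included 0. Per kilobase of exon, the share of Mmp7 in the summed level of the 8 MMP members was 90.8% and 95.5% in mock 1 and mock 2 and between 23.1% and 64.3% in ADT tumours, with a mean of 45.9% ± 20.9 (SD, n = 3). The level of Mmp14 per kilobase made up 27.7% ± 14.0 (SD, n = 3) of that sum in ADT tumours and 1.53% ± 0.518 (SD, n = 2) in mock tumours. In 1 of the 3 ADT tumours, ADT 1, the share of Mmp14, 42.5%, was above that of Mmp7, 23.1%. The median difference of the 10 genes was -0.72, beside -0.02 for all genes.

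Cell type markers differed between the tumours of both arms. Macrophage markers summed to 95134 and 28938 in mock 1 and mock 2, and to 24570, 30723 and 14960 in ADT, and fibroblast markers to 71245 and 32149 in mock and 125494, 16926 and 20314 in ADT. The summed luminal markers were 84828 and 95899 in mock and 42584, 53940 and 45353 in ADT, and Krt8 among them had 30841 and 35305 in mock and 20239, 18478 and 19814 in ADT. The endothelial markers summed to 24498 and 10065 in mock and 7467, 7170 and 7401 in ADT. They did not overlap between the arms, and neither did the luminal sums. Smooth muscle sums were 33424 and 20232 in mock and 10413, 20158 and 18540 in ADT, so mock 2 and ADT 2 nearly met. Of the 7 smooth muscle markers, 1 was lower and 1 higher in ADT without overlap. Mmp2, Mmp3, Mmp7 and Mmp9 had every ADT tumour below both mock tumours, an ordering met by 16.8% of all genes. The basal and squamous markers summed to 1063 and 24305 in mock, the widest ratio between the mock tumours among the 8 marker lists, and to 6870, 31649 and 24087 in ADT. Without mock 1, which had the higher macrophage and fibroblast sums of its group, the difference of Mmp2 was -0.71 and that of Mmp3 was -1.05. The part of cell composition in these differences was not tested. Among the other MMP genes, none of 15 was called, and no gene of the other pathway and marker lists was called between the arms. Mmp28, an MMP of epithelia, had 234 and 795 in mock and 2572, 3394 and 3442 in ADT, without overlap, a difference of 2.85 (SE 0.55, limma adjusted p = 0.151). Mmp15 had 6307 and 9596 in mock and 2457, 2527 and 2048 in ADT, a difference of -1.74 (SE 0.23, adjusted p = 0.105). Timp4 differed by -2.90 (SE 0.60, adjusted p = 0.162). No activator was called, with Plat at 1.56 (SE 0.21) and Plau at -1.16 (SE 0.26, adjusted p = 0.181).

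For each member called against wild type, the 3 genes with the most similar profile were found by the root mean square difference of centred log2 values over the 9 libraries of the genotype set. All profiles share those libraries, and the measure is a description with no test. Mmp2 was nearest to Adamts2 (0.223), Mrc2 (0.223) and Ctsk (0.265), which encode a procollagen protease, a collagen uptake receptor and the collagen-cutting cathepsin K. Mmp14 was nearest to Nox4 (0.231), Cfi (0.333) and Tmsb10 (0.355). Mmp10 was nearest to Clec4d (0.608), Cxcl2 (0.611) and Cxcl1 (0.682), and Mmp13 to Clec4d (0.423), Saa3 (0.639) and Htr2b (0.673); Clec4d is a lectin receptor of myeloid cells, and Cxcl1 and Cxcl2 are neutrophil-attracting chemokines. Mmp12 was nearest to Kif26b (0.449), Il1b (0.488) and Clec4d (0.525). Mmp3, whose own spread was the widest (2.90), had only distant neighbours, Serpinb9b (0.949), Pnliprp2 (0.966) and Col10a1 (0.992). Mmp7 was nearest to Rhbdf2 (0.199), Vamp5 (0.216) and Rin1 (0.238). Timp1 was nearest to Gpr35 (0.379), Thbs1 (0.405) and Ms4a6d (0.407), and Timp3 to Sertad4 (0.151), Pcdhga9 (0.189) and Emp3 (0.192). Among the 10 genes themselves the closest pair was Mmp2 and Mmp14 (0.535), followed by Mmp10 and Mmp13 (0.647). With 10 added to the values in place of 1, only 14 of the 27 named neighbours were found again.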

How the data were processed

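Per the labels' protocols, RNA (integrity number over 7.3) came from frozen tissue, and BGI read it on a HiSeq 2000, paired-end at 90 nt, to 6 Gb or more. Per the submitters' processing notes, the authors worked with GRCm38.p3, the aligners TopHat2 2.1.0 and Bowtie2 2.2.6.0, the counter HTSeq 0.6.0, DESeq2 1.14.1 under R 3.2.3, and FastQC 0.11.4 for read quality; their steps and settings are not given in the sources used here. The deposited values are scores on a count scale: as judged from the values, the authors divided gene counts by 1 size factor per library and rounded them. Raw counts were not used here, so depth and the precision it gives cannot be stated. The design had foreseen a count test for raw counts and limma on log2(value + 1) for scaled values, and the latter was used. A group of 3 libraries, and what rests on the further change alone, are not reported here.

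The wild-type, Ctnnb1 and combined files list 15195 features. Leaving out 631 without an Entrez number, 270 whose number stands on several features and 389 repeats kept 13905 genes. The treatment files list 42847 features, of which 3668 repeats were left out and 39179 kept. Missing symbols (15208) were looked up by Ensembl identifier. Genes with a value of at least 1 in at least 3 of 9, or 2 of 5, libraries were tested: 13905 and 23289. Values were taken as log2(value + 1) and tested with limma 3.58.1 (trended prior variance, R 4.3.3), group as the only factor, the file sets fitted apart. P-values are two-sided and adjusted by Benjamini-Hochberg over all genes tested, with calls under 0.05. Levels per kilobase used the exon length of a gene over all its GENCODE M21 transcripts. Promoter windows came from RefSeq (GRCm38.p6). The test was checked on simulated data. Python 3.11.15, pandas 2.3.3, numpy 2.4.6 and matplotlib 3.10.9 served for summaries and plots.

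The members and the 16 other lists of 135 genes were chosen with earlier results of these data known. All members are named in every comparison; from other lists, those with the smallest p in each direction (up to 3) were eligible, or up to 2 by value where none was called, and members shown as values. For members called against wild type the 3 nearest profiles were named. Outside that rule, Mmp8, Mmp20 and the flanking genes were taken for their place in the genome, and Krt8 in the treatment set after its values were seen.

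Alternatives were other numbers added before logs (0.5 and 10), no filter, and a mean of at least 10. Further ones were rescaling to equal totals or by the upper quartile, no trend and a robust prior. The genotype set was also fitted with all 12 genotype libraries, and with only the 6 libraries compared. For the treatment set the replicate number served as a block. Each library compared was also left out in turn.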

Additional observations from a re-analysis of the deposited data

How the results depend on the processing

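In Ctnnb1 against wild type, 6 to 7 of the 10 genes were called under the alternatives run, and in combined 7 to 9. Mmp10 was tested in only 15 of the 16 alternatives of each comparison with wild type. In combined it was called in all 15, and the other called genes in all 16. The low count of 7 there thus reflects a gene not tested and no lost call. In ADT against mock, 0 were called under each. Over the planned settings, 437 single-gene values kept direction and side of the threshold, 6 lost and 2 gained a call, and 13 turned direction. In Ctnnb1, Mmp9 ran from -0.83 to 1.45 and Timp3 from -1.48 to -1.30 with 1 library left out. In combined, Timp3 ran from -0.21 to 0.80. In ADT against mock, with 1 library left out, Mmp12 ran from -0.58 to 0.61, Mmp13 from -1.50 to 0.71, Mmp14 from -0.26 to 0.93, Timp1 from -1.09 to 0.95 and Timp3 from -0.14 to 1.77. Mmp12 was -0.02 at equal totals and -0.00 by the upper quartile there. Against 2 genes called in all, ADT against mock gave 5 with 10 added, 50 with a mean of at least 10, 48 at equal totals, 54 by the upper quartile, 29 with a robust prior, 0 without a trend and 0 to 0 with 1 library left out; the cause was not tested. With the replicate block the count was 0 and Timp1 was 0.10. Same-numbered libraries had correlations of deviations of 0.22 and 0.12, mock 2 and ADT 3 had 0.14, and 2 pairs do not establish a pairing. With 10 added, 14 of 27 nearest profiles were found again. Where a lone mock library remained, it was assumed to vary like the ADT libraries. Groups of 2 or 3 libraries limit all intervals, and with depth unknown no counting error can be given for the low wild-type values of Mmp10, Mmp3 and Mmp13.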
